A study of Mus musculus with 8 samples.

Results

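The replication-dependent histone genes were taken as every gene whose name on the array begins with Hist1h, Hist2h, Hist3h or Hist4h. This gave 34 of 27961 gene names, read by 44 probes, and where a gene had several probes the one with the highest mean processed signal over the 8 arrays stood for it. They comprise 6 linker histone H1 genes and, for the core histones, 11 H2A, 8 H2B, 3 H3 and 6 H4 genes. RefSeq lists 70 mouse genes that carry or once carried such a name, so the array reads part of the family. By RefSeq, 24 of the 34 lie on chromosome 13, 6 on chromosome 3, 3 on chromosome 11 and 1 on chromosome 6.

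Most mRNAs end in a poly(A) tail, which is bound by PABP1, a poly(A)-binding protein of the cytoplasm that takes part in translation and in mRNA stability. Replication-dependent histone mRNAs are the known exception in animal cells: they end in a short stem-loop bound by the protein SLBP, they are made in S phase, and they are degraded when DNA synthesis stops. Their products are the core histones H2A, H2B, H3 and H4, which form the nucleosome, and H1, which binds the DNA between nucleosomes. Some of these genes are also known to give polyadenylated transcripts, mostly in cells that have left the cell cycle. DAZL is an RNA-binding protein of germ cells.

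All samples came from a single line of mouse embryonic stem (ES) cells that carries the transgene Dazl-GFP. The cells were kept in serum, leukemia inhibitory factor and the 2i inhibitors of MEK and GSK3β, over γ-irradiated fibroblasts as feeders. Native RNA immunoprecipitation (IP) with an antibody against GFP gave 3 samples and with an antibody against PABP1 gave 2, and 3 inputs had no antibody. An IP with a control antibody was not analysed here, and the sources used here do not say how GFP is joined to Dazl in the line. Separate cultures are not stated for the samples of a group, and the spread behind the p-values may therefore be technical.

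Each sample was hybridised to a 1-colour Agilent array, and 41.5 to 52.6% of its 43379 spots rose well above background, with none saturated. Levels below are log2 of the processed signal minus the 75th percentile of the array, and a difference is between group means of such levels. The arrays lay on 2 slides, and both held all 3 groups. All 9 ES cell markers were well above background on every array. The 12 feeder fibroblast markers summed to 111 to 157 times the 75th percentile signal in the GFP IPs, 341 to 364 times in the PABP1 IPs and 236 to 325 times in the inputs. Of these, 0 were higher and 9 lower in the GFP IPs than in input, against 21.4% higher and 43.3% lower among all 14743 genes tested, with a median difference of -1.07 against -0.51. In the PABP1 IPs 5 were higher and 1 lower than in input, against 34.3% and 25.3%, with a median of 0.43 against 0.24. Of the 9 ES cell markers 5 were higher and 2 lower in the GFP IPs than in input, with a median of 0.55. In the PABP1 IPs 4 of them were higher and 1 lower, with a median of 0.26. The feeder genes, like the histone genes, were mostly lower in the GFP IPs, and the part of feeder RNA in the histone results was not tested. The differences are between RNA in an IP and RNA in input. In such bulk samples the cells that the RNA came from cannot be told.

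Histone mRNAs were mostly lower in the GFP IPs than in input, while in the PABP1 IPs the classes went separate ways. There most H1 and H4 genes were lower, and the H2B median of 0.37 was near the 0.24 of all tested genes. The H3 median there was 0.83, and it depended on the scaling. A gene was tested where some group had it well above background throughout, which held for 30 of the 34 genes and 14743 genes in all. The test was limma's, with Benjamini-Hochberg adjustment and a threshold of 0.05. In the GFP IPs 24 were lower and 1 was higher than in input, against 43.3% lower and 21.4% higher among all tested genes. The median difference was -1.60 for the tested histone genes, against -0.51 for all tested genes. Among the histone genes 24 had every GFP IP array below every input array and 1 had every array above, against 46.1% and 23.2% of all tested genes. The GFP IPs were thus below the inputs, relative to the median gene, by 1.09 on the log2 scale for the middle histone gene. With the differences centred on the median gene, 4 were higher and 19 lower. The 1 higher gene, Hist2h2be, was well above background on only 1 of 3 inputs, and over genes detected on all arrays 0 were higher.

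The PABP1 IPs had 8 histone genes higher and 11 lower than input, against 34.3% higher and 25.3% lower among all tested genes. Their median difference was -0.92, against 0.24 for all tested genes. In 10 genes every PABP1 IP array lay above every input array and in 13 every array lay below, against 40.9% and 29.9% of all tested genes. A fit with slide as a block had 10 higher and 17 lower, and with quantile normalization 5 were higher and 15 lower. Both IPs were set against the same 3 inputs, so the comparisons are not independent of each other.

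Between the IPs, 3 histone genes were higher and 14 lower in the GFP IPs than in the PABP1 IPs, against 23.9% higher and 47.4% lower among all tested genes. In 3 genes every GFP IP array lay above every PABP1 IP array and in 14 below, against 27.2% and 53.6% of all tested genes. The median difference was -0.57 for the histone genes and -0.67 for all tested genes. As a family the histone genes therefore stood near the background in this comparison, and the classes within it did not stand together. A slide block gave 5 higher and 20 lower. Quantile normalization gave 10 higher and 11 lower with a median of 0.34, and centring on the median gene gave 7 higher and 9 lower with a median of 0.10, so the direction of the family median depends on the scaling. Normexp background correction cut the calls in all 3 comparisons: 0 higher and 14 lower in the GFP IPs than in input, 2 higher and 3 lower in the PABP1 IPs than in input, and 0 higher and 8 lower between the IPs. The calls of all genes fell too, to 594 higher and 966 lower of 14743 in the GFP IPs against input, where the histone median was -1.55.

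Of the 30 tested genes, 28 were well above background on all 8 arrays. The remaining pair, Hist1h2ae and Hist2h2be, entered the test only through the group where each is highest, so their calls are not read as results. A bound is given for each where one kind of IP was measured throughout and the other on 0 arrays. Over genes detected on all arrays, 0 histone genes were higher and 24 lower in the GFP IPs than in input, 7 were higher and 12 lower in the PABP1 IPs than in input, and 2 were higher and 13 lower in the GFP than in the PABP1 IPs. The untested genes were Hist1h1t, well above background on 2 arrays, Hist1h2ac, on 1 array, and Hist1h2be and Hist2h2aa2, on 0 arrays.

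**Figure D1:**
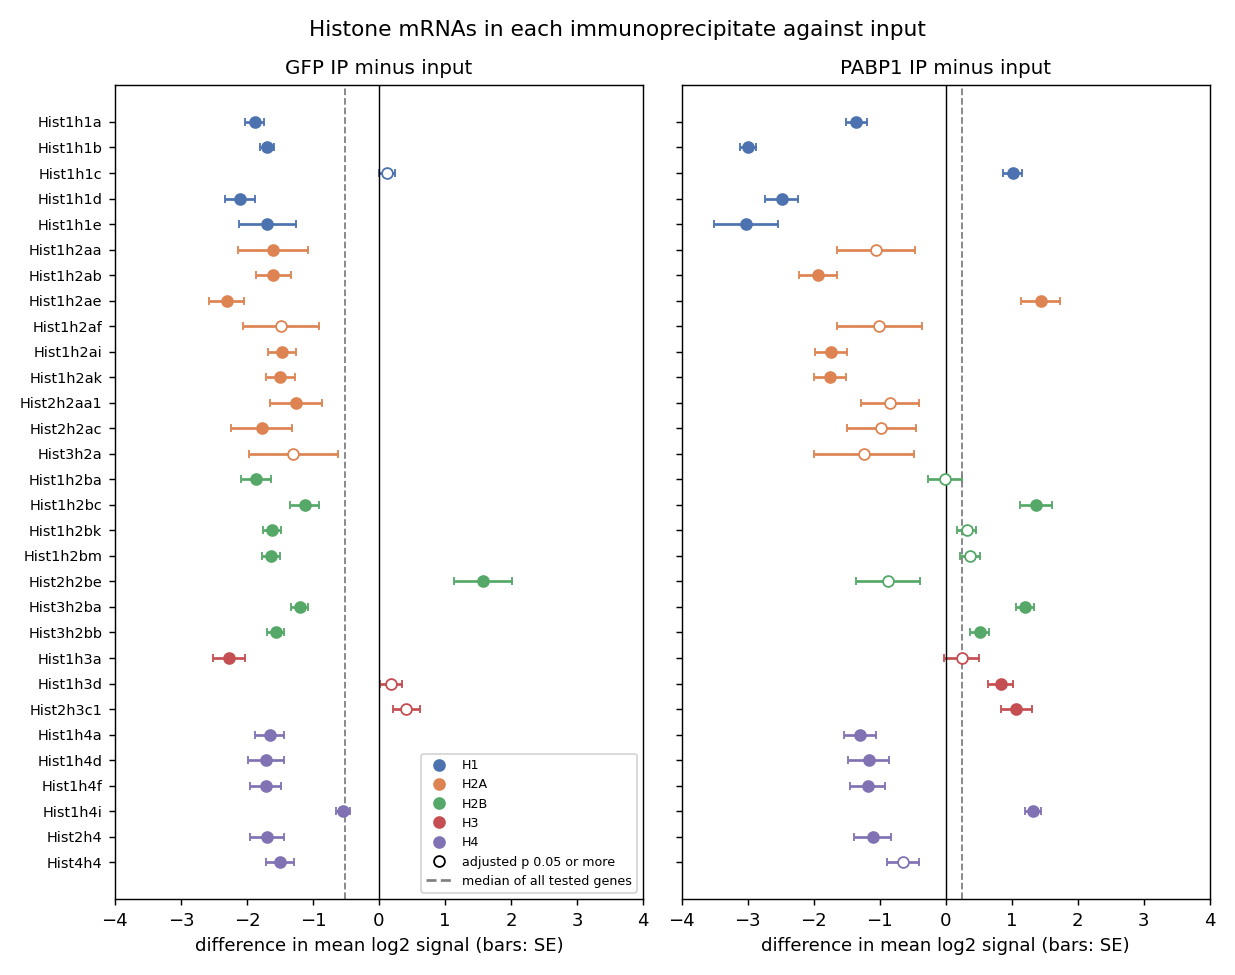
Difference in mean log2 signal from input for the 30 tested histone genes, GFP IP on the left and PABP1 IP on the right, with bars of 1 standard error, colour by class, and open symbols where the adjusted p was 0.05 or more. In the GFP IPs 26 genes lie below 0; in the PABP1 IPs 19 do, with H1 and H4 genes mostly below 0 and H2B and H3 genes mostly above.

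The linker histone genes had the lowest class median in the PABP1 IPs. Of 5 tested H1 genes 4 were lower and 1 higher in the PABP1 IPs than in input, with a median of -2.48. Among all tested genes 25.3% were lower and 34.3% higher there. In the GFP IPs 4 H1 genes were lower and 0 higher, with a median of -1.69, against 43.3% lower and 21.4% higher. H1 proteins bind linker DNA and compact chromatin, and these genes encode its common subtypes in dividing cells.

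Hist1h1e, which encodes the subtype H1.4, stood at 2.69, 3.63 and 2.66 in the GFP IPs, 2.28 and 1.05 in the PABP1 IPs, and 4.996, 4.96 and 4.10 in the inputs. No IP array reached any input array. Its difference from input was -1.69 in the GFP IPs (SE 0.43, limma adjusted p = 0.011) and -3.02 in the PABP1 IPs (SE 0.48, limma adjusted p = 0.00134), the lowest of any histone gene in the PABP1 comparison. Hist1h1b, for H1.5, had 1.35, 1.28 and 1.18 in the GFP IPs, 0.03 and -0.09 in the PABP1 IPs, and 2.94, 2.93 and 3.02 in the inputs. The 3 groups did not overlap, and the differences from input were -1.69 in the GFP IPs (limma adjusted p = 3.15e-05) and -3.00 in the PABP1 IPs (limma adjusted p = 1.39e-05).

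Hist1h1d, for H1.3, had 0.44, 0.61 and 0.26 in the GFP IPs, 0.36 and -0.25 in the PABP1 IPs, and 2.76, 2.66 and 2.20 in the inputs. Both kinds of IP lay below all inputs and overlapped each other, with differences from input of -2.10 (limma adjusted p = 0.000196) in the GFP IPs and -2.48 (limma adjusted p = 0.000151) in the PABP1 IPs. Hist1h1a, for H1.1, was lower than input by the same test in both, with -1.88 in the GFP IPs and -1.35 in the PABP1 IPs.

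Hist1h1c, for H1.2, was the H1 gene called in the opposite direction. It stood at 0.18, 0.30 and 0.26 in the GFP IPs, 1.05 and 1.23 in the PABP1 IPs, and -0.05, 0.25 and 0.17 in the inputs. The PABP1 IPs were above every input and the GFP IPs overlapped the inputs. The difference was 1.01 in the PABP1 IPs (2.02-fold higher, SE 0.14, limma adjusted p = 0.000662) and 0.12 in the GFP IPs (limma adjusted p = 0.401).

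Between the IPs, Hist1h1b was higher in the GFP IPs than in the PABP1 IPs by 1.30 (limma adjusted p = 6.71e-05) and Hist1h1e by 1.33 (limma adjusted p = 0.04). The call for Hist1h1e was lost on leaving out any GFP IP, PABP1 IP replicate 2 or input replicate 1 or 2, with differences of 0.71 to 1.495. Hist1h1c was lower in the GFP IPs by 0.89 on the log2 scale and Hist1h1a by 0.53, which turned to 0.15 with centring on the median gene. Hist1h1d, at 0.38, was not called. It was called higher under 4 other settings, among them slide as a block (0.45) and centring on the median gene (1.05). Without GFP IP replicate 1 or PABP1 IP replicate 1, Hist1h1a had -0.48 or -0.33 and was not called. The H1 genes therefore parted within the class in this comparison.

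With the main processing most H2A genes were called lower than input in the GFP IPs and fewer were called in the PABP1 IPs, with wide spread between slides. Of 9 tested H2A genes 7 were lower and 0 higher in the GFP IPs, with a median of -1.49, against 43.3% lower and 21.4% higher among all tested genes. The PABP1 IPs had 3 lower, 1 higher and 5 not called, with a median of -1.05, against 25.3% lower and 34.3% higher. The higher one, Hist1h2ae, was mostly below background in input. With slide as a block, 9 were lower in the GFP IPs, and 8 were lower and 1 higher in the PABP1 IPs. In the GFP IPs 6 were lower with quantile normalization, 4 with centring on the median gene and 1 with normexp. Of all 14743 genes 5241, 3380 and 966 were lower there. In the PABP1 IPs 6 were lower with quantile normalization and 0 with normexp, against 4304 and 649 of all genes. H2A pairs with H2B in the nucleosome, and many of its genes stand beside an H2B gene.

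Hist1h2ab, which encodes a canonical H2A, stood at 2.72, 3.36 and 2.91 in the GFP IPs, 3.03 and 2.29 in the PABP1 IPs, and 4.67, 4.82 and 4.29 in the inputs. Every IP array was below every input array, with differences of -1.60 in the GFP IPs (SE 0.26, limma adjusted p = 0.00151) and -1.93 in the PABP1 IPs (SE 0.29, limma adjusted p = 0.00107). Hist1h2ai and Hist1h2ak, which also encode canonical H2A, were lower by similar amounts, with -1.47 and -1.49 in the GFP IPs and -1.74 and -1.75 in the PABP1 IPs. Their levels correlated at r = 0.998 over the 8 arrays, with the same arrays and scaling behind both. Near-identical histone genes can be read by the same probe, so values of such pairs may come from the same transcripts.

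The probe for Hist1h2aa, which encodes the testis histone TH2A, had the highest mean signal among the H2A probes. Its levels correlated at r = 0.993 with those of Hist1h2af and at r = 0.985 with those of Hist2h2ac. The probe may therefore read transcripts of other H2A genes, which was not tested. Hist1h2aa stood at 9.60, 10.29 and 9.20 in the GFP IPs and at 10.81 and 9.69 in the PABP1 IPs. The inputs had 11.93, 11.72 and 10.26. Within each group the slide 2 arrays were lower than the slide 1 array or arrays, and a GFP IP array on slide 1 overlapped the input on slide 2. Its difference in the GFP IPs was -1.61 (SE 0.53, limma adjusted p = 0.0311), a call lost without GFP IP replicate 1 or 3 or input replicate 1 or 2, with -1.56 to -1.29. The PABP1 IPs had -1.05 (limma adjusted p = 0.166), which became -0.85 once slide was a block (limma adjusted p = 0.00852) and -1.57 without input replicate 3, both called.

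Hist1h2af followed Hist1h2aa closely over the 8 arrays (r = 0.993, again with shared arrays and scaling), with differences of -1.48 in the GFP IPs (limma adjusted p = 0.0551) and -1.004 in the PABP1 IPs. Hist2h2ac had -1.77 in the GFP IPs (limma adjusted p = 0.0124) and -0.97 in the PABP1 IPs, which was not called. Both encode H2A of the canonical kind. Without input replicate 3 the PABP1 values were -1.60 and -1.41 and were called, and Hist1h2af in the GFP IPs was called at -2.07, as it was at -1.80 without GFP IP replicate 2.

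Hist2h2aa1, from the chromosome 3 cluster, had 1.15, -0.13 and 0.97 in the GFP IPs, 0.79 and 1.36 in the PABP1 IPs, and 1.70, 1.60 and 2.44 in the inputs. All IP arrays were below all inputs. The difference was -1.25 in the GFP IPs (limma adjusted p = 0.0261), the smallest fall in this class, and without input replicate 3 it was -0.98 and not called. For the PABP1 IPs it was -0.84 and not called, and a slide block gave -0.98 (limma adjusted p = 0.00131).

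Hist1h2ae was dim. It had -4.95, -5.67 and -5.74 in the GFP IPs, -1.55 and -1.86 in the PABP1 IPs, and -2.84, -3.51 and -3.09 in the inputs. The 3 groups did not overlap, but it was well above background on 0 GFP IP arrays, both PABP1 IP arrays and 1 of 3 inputs. With the main processing its bound was 5.23-fold lower in the GFP IPs than in the PABP1 IPs. A bound sets the mean of the bright group against the lowest signal of any probe well above background on the dim arrays. It depends on the background correction and is not a strict limit. No size is given against input, where most arrays did not measure it. With normexp background correction all 3 differences lay between -0.34 and 0.13 and were not called.

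Between the IPs no other H2A gene was called, but with slide as a block Hist1h2ab was higher in the GFP IPs by 0.43 (limma adjusted p = 0.0125), and Hist2h2aa1 and Hist2h2ac were lower, at -0.56 (limma adjusted p = 0.0138) and -0.63 (limma adjusted p = 0.0352). Without the block Hist1h2ab, Hist1h2ai and Hist1h2ak had 0.33, 0.27 and 0.26, and Hist1h2aa, Hist1h2af, Hist2h2aa1 and Hist2h2ac had -0.56, -0.48, -0.41 and -0.80. With quantile normalization 4 H2A genes were called higher, with a class median of 0.73, among them Hist1h2aa at 0.76 and Hist1h2af at 1.02. Centring on the median gene had 3 higher. Of all 14743 genes 4200 and 5294 were higher under these settings. Hist3h2a, at -0.05, is taken up with its other probes below.

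**Figure D2:**
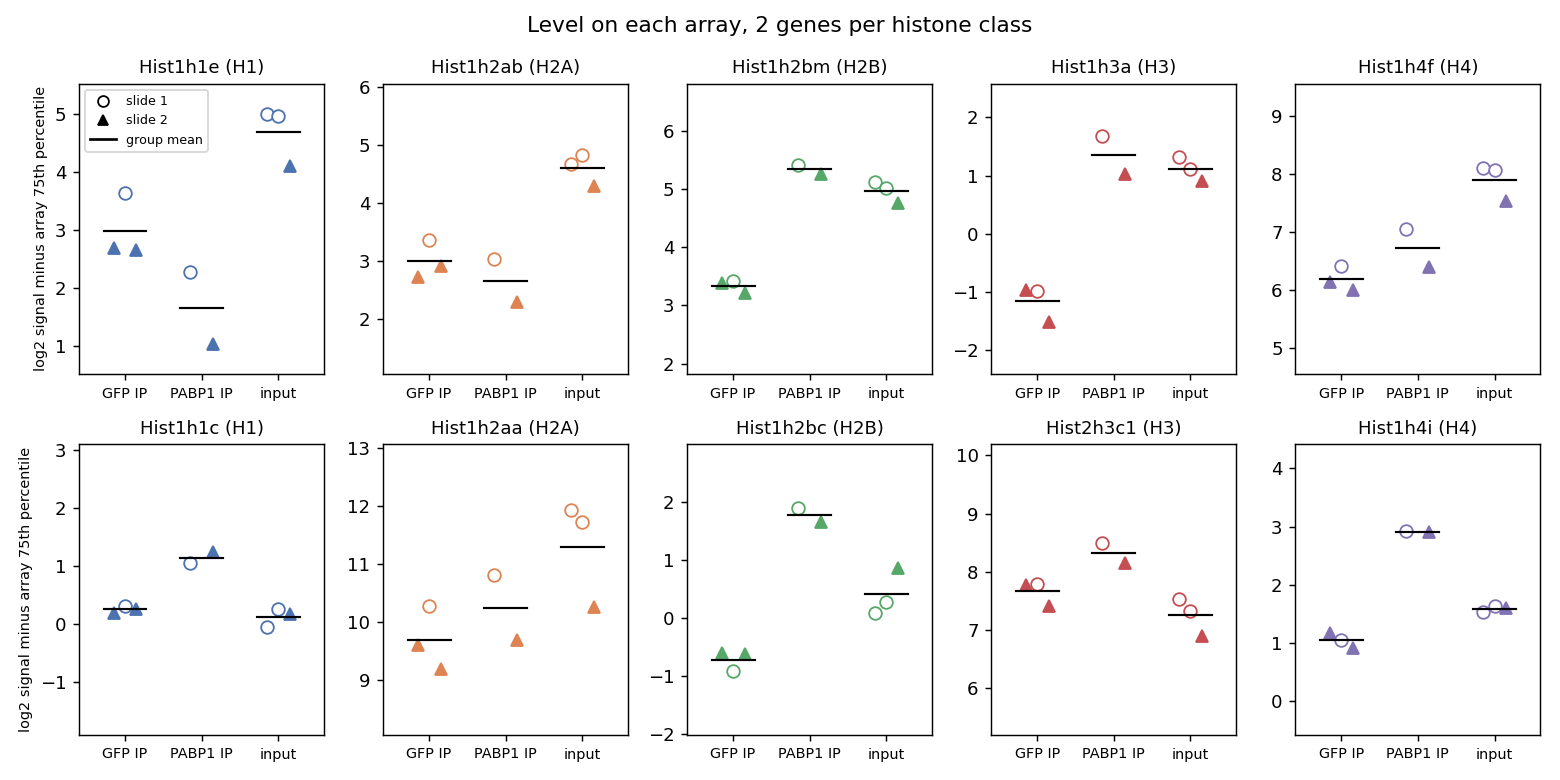
Level on each array, as log2 signal minus the 75th percentile of the array, for 2 genes of each class, with GFP IP, PABP1 IP and input from left to right, slide by symbol, and a line at each group mean. Every panel spans 5 log2 units. Hist1h1c, Hist1h2bc, Hist2h3c1 and Hist1h4i are above input in the PABP1 IPs, and Hist1h2bm is below input only in the GFP IPs.

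The H2B genes parted between the IPs. Of 7 tested H2B genes, 6 were lower and 1, the dim Hist2h2be, higher in the GFP IPs than in input, with a median of -1.56. Among all tested genes 43.3% were lower and 21.4% higher. Against input, 3 H2B genes were higher and 0 lower in the PABP1 IPs, with a median of 0.37. All tested genes had 34.3% higher and 25.3% lower there, with a median of 0.24. With slide as a block 5 H2B genes were higher, against 6371 of all 14743, and with centring on the median gene 2 were, against 4092. Between the IPs, 6 H2B genes were lower and 1 higher in the GFP IPs than in the PABP1 IPs, against 47.4% and 23.9% of all tested genes. The median was -2.0001 against -0.67 for all tested genes. In the same comparison 11 of the 12 feeder markers were lower and 1 higher, with a median of -1.75, and the part of feeder RNA in the H2B result was not tested. The 6 were also called lower under all 21 other fits tried.

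Promoters of H2B genes are known for an octamer element, ATTTGCAT, or ATGCAAAT on the other strand. RefSeq promoters (GRCm38.p6, windows of one length that lie mostly before the start site) were at hand for 29 of the 34 genes. The octamer was found on either strand in 4 of 5 H2B promoters and 6 of 11 H2A promoters, in 0 of 6 H1, 0 of 2 H3 and 0 of 5 H4 promoters, and in 1.74% of all 32851 promoters of this length. The H2B promoter that lacks it is that of Hist3h2ba. Whether the octamer bears on the levels was not tested. The windows of 30 bases, with the octamer in capitals, are printed for the 3 tested H2B genes that hold it. Another is printed for Hist1h2aa, the head-to-head neighbour of Hist1h2ba 280 bases away. The windows of that pair are 1 stretch of DNA, chr13:23934302-23934331, read on the plus strand for Hist1h2aa and on the minus strand for Hist1h2ba. Those of Hist1h2bk, chr13:22035780-22035809, and Hist1h2bm, chr13:21722008-21722037, are on the plus strand.
Hist1h2ba: gaattccccttATTTGCATgcacccagcac
Hist1h2aa: gtgctgggtgcATGCAAATaaggggaattc
Hist1h2bk: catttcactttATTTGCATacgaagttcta
Hist1h2bm: ctctcgtctctATTTGCATaacagcgtgta

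Hist1h2bm, a canonical H2B gene, stood at 3.38, 3.42 and 3.22 in the GFP IPs, 5.42 and 5.26 in the PABP1 IPs, and 5.13, 5.02 and 4.77 in the inputs. All GFP IPs were below all inputs and both PABP1 IPs were above them. The difference from input was -1.63 in the GFP IPs (3.095-fold lower, SE 0.14, limma adjusted p = 8.02e-05) and 0.37 in the PABP1 IPs (limma adjusted p = 0.073). Between the IPs it was -2.0001 (limma adjusted p = 3.21e-05).

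Hist1h2bk had 3.35, 3.43 and 3.29 in the GFP IPs, 5.40 and 5.19 in the PABP1 IPs, and 5.12, 5.05 and 4.77 in the inputs. It differed from input by -1.62 in the GFP IPs (limma adjusted p = 7.73e-05) and by 0.32 in the PABP1 IPs (limma adjusted p = 0.11). Hist3h2bb, which RefSeq lists as a transcribed pseudogene, was lower in the GFP IPs by 1.56 on the log2 scale (limma adjusted p = 7.27e-05) and higher in the PABP1 IPs by 0.51 (limma adjusted p = 0.0169). The PABP1 value was 0.41 without PABP1 IP replicate 1, and 0.27 and not called with centring on the median gene. Over the 21 other settings it ran from 0.17 to 0.80. These H2B probes gave nearly the same profile over the 8 arrays, with r = 0.999 between Hist1h2bk and Hist1h2bm and r = 0.998 between Hist1h2bm and Hist3h2bb, so they may read common transcripts and are not independent.

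Hist1h2ba encodes the testis histone TH2B. Its levels correlated at r = 0.981 with those of Hist1h2bk. Its probe may therefore read transcripts of other H2B genes, which was not tested. Hist1h2ba stood at 2.25, 2.5996 and 2.22 in the GFP IPs and at 4.44 and 3.98 in the PABP1 IPs. The inputs had 4.45, 4.40 and 3.81. The GFP IPs lay below all other arrays, and the PABP1 IPs overlapped the inputs. The difference from input was -1.87 in the GFP IPs (limma adjusted p = 0.000357), the lowest of the class, and -0.01 in the PABP1 IPs (limma adjusted p = 0.974), where its neighbour Hist1h2aa had -1.05.

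Hist1h2bc had -0.60, -0.92 and -0.63 in the GFP IPs, 1.90 and 1.65 in the PABP1 IPs, and 0.09, 0.28 and 0.86 in the inputs. The 3 groups did not overlap. It was lower in the GFP IPs by 1.13 on the log2 scale (limma adjusted p = 0.0032) and higher in the PABP1 IPs by 1.36 (2.57-fold, SE 0.24, limma adjusted p = 0.00231), the highest H2B value there. RefSeq gives this gene a span of 8282 bases, where most of the 34 genes span 383 to 794 bases.

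Hist3h2ba moved in the same way, with -0.09, 0.15 and 0.04 in the GFP IPs, 2.55 and 2.33 in the PABP1 IPs, and 1.22, 1.32 and 1.17 in the inputs. The groups did not overlap, and its differences from input were -1.20 in the GFP IPs (limma adjusted p = 0.000175) and 1.21 in the PABP1 IPs (limma adjusted p = 0.000277). Hist1h2bc and Hist3h2ba were the only H2B genes other than Hist3h2bb called higher in the PABP1 IPs.

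Hist2h2be, with a span of 2667 bases, was dim in input and in the PABP1 IPs. It had -2.21, -2.21 and -2.01 in the GFP IPs, -4.81 and -4.38 in the PABP1 IPs, and -4.81, -3.17 and -3.17 in the inputs. All GFP IPs were above all other arrays. It was well above background on all 3 GFP IP arrays, 0 PABP1 IP arrays and 1 of 3 inputs. With the main processing its bound was 3.60-fold higher in the GFP IPs than in the PABP1 IPs. With normexp background correction that difference was 0.65 on the log2 scale and was not called. No size is given against input, where most arrays did not measure it, and with normexp the GFP IPs differed from input by 0.14, which was not called.

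**Figure D3:**
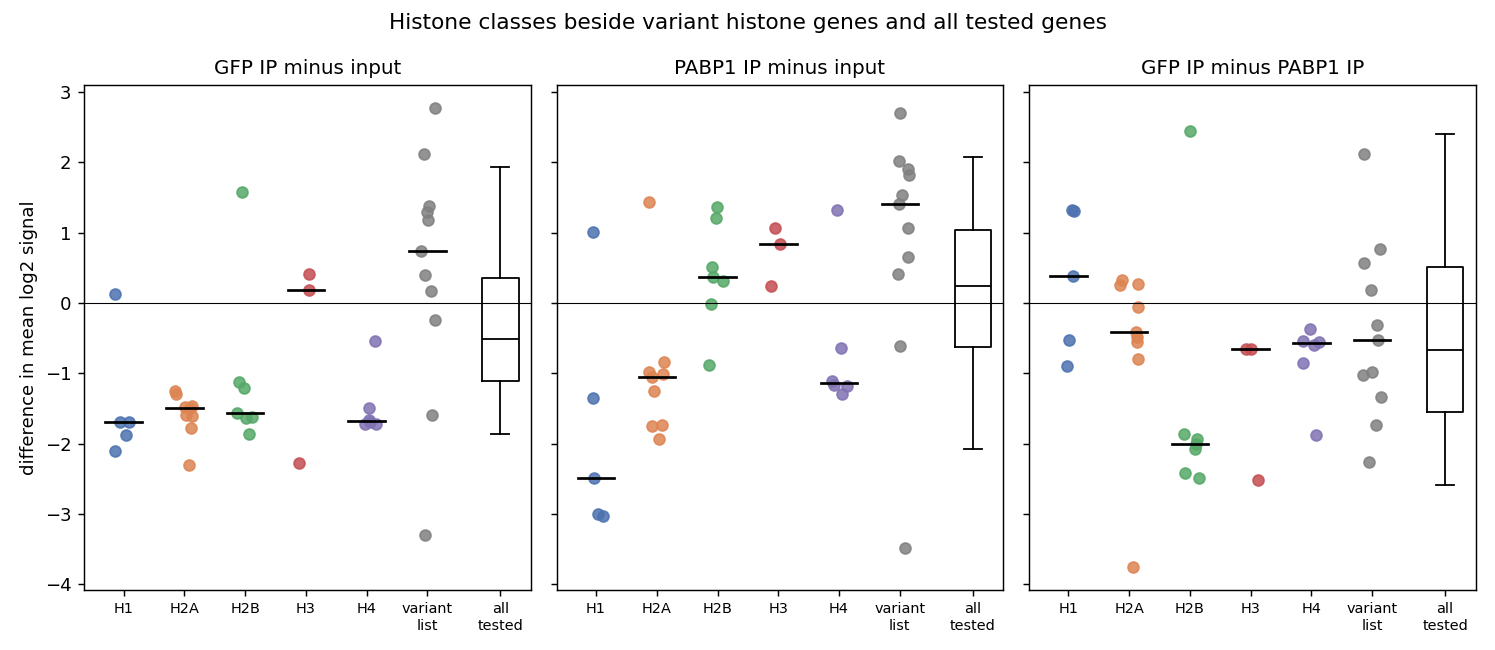
Difference in mean log2 signal for each tested histone gene by class, for a list of 11 variant histone genes, and for all 14743 tested genes as a box (median and quartiles, whiskers at the 5th and 95th percentiles), in the 3 comparisons; lines mark class medians. Horizontal scatter of points is random. But for Hist2h2be, H2B genes lie near 0 or above in the PABP1 IPs against input and between -2.49 and -1.85 in the GFP IPs against the PABP1 IPs.

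The H3 class held 3 genes, and they did not move together. In the GFP IPs 1 was lower and 0 higher than input, with a median of 0.18, against 43.3% lower and 21.4% higher among all tested genes. In the PABP1 IPs 2 were higher and 0 lower, with a median of 0.83, against 34.3% and 25.3%. Quantile normalization left 0 H3 genes higher in the PABP1 IPs, with a median of 0.15 against 0.12 for all tested genes. Against the PABP1 IPs, 3 H3 genes were lower in the GFP IPs, where 47.4% of all tested genes were.

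Hist1h3a had -0.97, -0.99 and -1.52 in the GFP IPs, 1.68 and 1.02 in the PABP1 IPs, and 1.31, 1.12 and 0.90 in the inputs. The GFP IPs lay below all other arrays, while PABP1 IPs and inputs overlapped. The difference from input was -2.27 in the GFP IPs (4.83-fold lower, SE 0.24, limma adjusted p = 0.000183) and 0.24 in the PABP1 IPs (limma adjusted p = 0.463). Between the IPs it was -2.51 (limma adjusted p = 0.000127).

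Hist2h3c1 had 7.78, 7.80 and 7.41 in the GFP IPs, 8.49 and 8.15 in the PABP1 IPs, and 7.52, 7.33 and 6.89 in the inputs. The PABP1 IPs were above all other arrays, and the GFP IPs overlapped the inputs. It was higher than input in the PABP1 IPs by 1.07 (2.10-fold, SE 0.23, limma adjusted p = 0.00567), and its difference in the GFP IPs was 0.41 (limma adjusted p = 0.115), or 0.53 and called with slide as a block. Hist1h3d had 7.22, 7.08 and 6.99 in the GFP IPs, 7.87 and 7.63 in the PABP1 IPs, and 7.14, 6.98 and 6.62 in the inputs, with differences of 0.18 in the GFP IPs (limma adjusted p = 0.354) and 0.83 in the PABP1 IPs (limma adjusted p = 0.00654). Without PABP1 IP replicate 1 the PABP1 value of Hist1h3d was 0.71 and not called.

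These last genes were lower in the GFP IPs than in the PABP1 IPs by 0.66 and 0.65 on the log2 scale, at the median of all tested genes. The call of Hist2h3c1 was lost without GFP IP replicate 1 or 3, PABP1 IP replicate 1 or input replicate 2 (-0.72 to -0.49), and that of Hist1h3d without GFP IP replicate 3 or PABP1 IP replicate 1 (-0.59 and -0.53). The direction turned with the scaling. Quantile normalization gave 0.88 for Hist2h3c1 and 0.78 for Hist1h3d, and centring on the median gene gave 0.02 for each.

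All 6 tested H4 genes were lower than input in the GFP IPs, with a median of -1.68, against 43.3% lower among all tested genes. The PABP1 IPs had 4 lower, 1 higher and 1 not called, with a median of -1.14, against 25.3% lower and 34.3% higher. H4 genes differ outside the coding part, while most of them encode one and the same protein.

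Hist1h4f stood at 6.13, 6.41 and 6.01 in the GFP IPs, 7.05 and 6.40 in the PABP1 IPs, and 8.10, 8.07 and 7.54 in the inputs. Every IP array was below every input. The difference was -1.72 in the GFP IPs (3.29-fold lower, SE 0.24, limma adjusted p = 0.000651) and -1.18 in the PABP1 IPs (2.26-fold lower, SE 0.26, limma adjusted p = 0.0067). Hist1h4a had 4.33, 4.62 and 4.41 in the GFP IPs, 5.10 and 4.53 in the PABP1 IPs, and 6.30, 6.29 and 5.74 in the inputs, with -1.66 in the GFP IPs (limma adjusted p = 0.000518) and -1.29 in the PABP1 IPs (limma adjusted p = 0.00293).

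Hist1h4d and Hist2h4, at r = 0.999 over the 8 arrays, were lower by 1.71 and 1.70 on the log2 scale in the GFP IPs and by 1.16 and 1.11 in the PABP1 IPs. Without PABP1 IP replicate 2 the PABP1 values were -0.76 and -0.75 and were not called. Hist4h4, alone on chromosome 6, had -1.50 in the GFP IPs (limma adjusted p = 0.000803) and -0.65 in the PABP1 IPs (limma adjusted p = 0.0521), which was called without GFP IP replicate 2 and with slide as a block (-0.71).

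Hist1h4i, whose probe was made to an expressed sequence tag, went the opposite way in the PABP1 IPs. It had 1.16, 1.05 and 0.91 in the GFP IPs, 2.92 and 2.90 in the PABP1 IPs, and 1.52, 1.63 and 1.60 in the inputs. The 3 groups did not overlap. The difference from input was 1.32 in the PABP1 IPs (2.505-fold higher, SE 0.12, limma adjusted p = 0.000115) and -0.55 in the GFP IPs (limma adjusted p = 0.00398), which is close to the median of all tested genes. The call in the PABP1 IPs was kept under all 21 other settings, and in the authors' deposited table of group means the GFP IP value was 0.07.

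Between the IPs, Hist1h4i was lower in the GFP IPs by 1.87 on the log2 scale (limma adjusted p = 1.85e-05) and Hist4h4 by 0.85 (limma adjusted p = 0.0154), a call lost without either PABP1 IP (-0.91 and -0.80). Hist1h4a, Hist1h4d, Hist1h4f and Hist2h4 had -0.36, -0.55, -0.54 and -0.59 and were not called. With slide as a block all 6 H4 genes were called lower, as were 8224 of all 14743 tested genes. Without PABP1 IP replicate 2, Hist1h4d, Hist1h4f and Hist2h4 were called at -0.95, -0.86 and -0.95, while with quantile normalization Hist1h4f had 0.58 and was called higher.

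Other probes gave a second reading for some genes, and they did not always go the same way. Hist3h2a, an H2A gene on chromosome 11, had 3 probes well above background on all arrays. The probe that stood for it had 5.79, 4.24 and 5.51 in the GFP IPs, 4.17 and 6.30 in the PABP1 IPs, and 6.09, 5.99 and 7.36 in the inputs, with slide 2 above slide 1 in every group. Its differences from input were -1.30 in the GFP IPs (limma adjusted p = 0.129) and -1.24 in the PABP1 IPs (limma adjusted p = 0.197), while a slide block gave -1.82 and -1.51, both called, and without PABP1 IP replicate 2 the PABP1 value was -2.31 and called. A second probe gave -1.73 in the GFP IPs and -2.19 in the PABP1 IPs. The remaining probe gave 1.49 and 1.59, also called, so the direction for Hist3h2a depends on the probe.

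The second probe of Hist1h2af had -1.71 in the GFP IPs and -1.90 in the PABP1 IPs, that of Hist1h4d had -1.59 and -1.95, and that of Hist1h2bk had -1.53 and 0.11. These have the signs of the probes that stood for those genes. The other probes of Hist1h1d, Hist1h2bc, Hist2h2aa2 and Hist4h4 were well above background on 0 arrays.

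Because slide shifted several H2A probes, the differences were also taken within each slide. In the GFP IPs all 30 tested genes kept 1 sign in both slides, 26 below 0 and 4 above. All 30 did so in the PABP1 IPs too, 18 below 0 and 12 above. Between the IPs 29 did so, 22 below 0 and 7 above, and Hist3h2a did not. The H2B median between the IPs was -1.997 on slide 1 and -1.96 on slide 2.

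**Figure D4:**
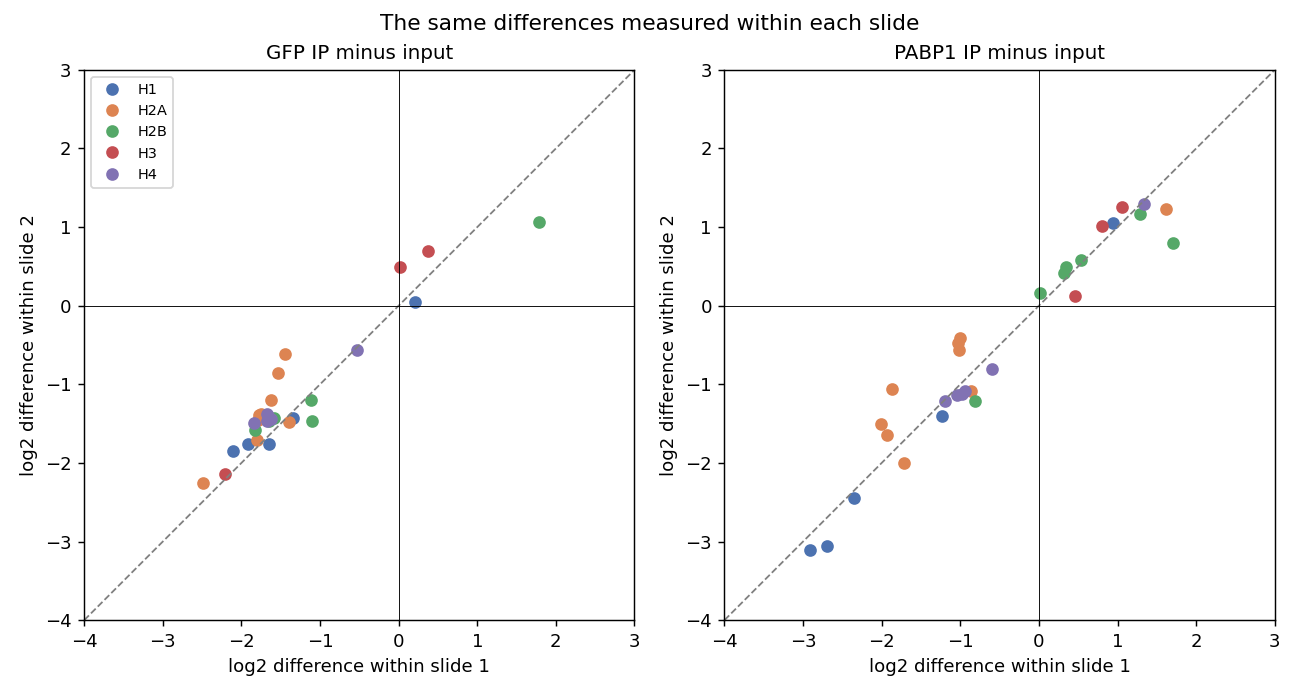
Log2 difference from input of the 30 tested histone genes within slide 1 (horizontal) and within slide 2 (vertical), GFP IP on the left and PABP1 IP on the right, colour by class; the dashed line marks equal values. No gene lies on opposite sides of 0 in the slides.

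Genes for the proteins that process and degrade histone mRNAs were listed beside the family. Of 23 tested, 5 were higher and 8 lower in the GFP IPs than in input, with a median of -0.25, against 21.4% higher and 43.3% lower among all tested genes. The PABP1 IPs had 6 higher and 12 lower, with a median of -0.64, against 34.3% and 25.3%. Of the 23, 21 were well above background on all arrays, and the 12 include Xrn1, which was not. Between the IPs 9 were higher and 7 lower in the GFP IPs, against 23.9% and 47.4%. The mRNA of Slbp, the stem-loop binding protein, had 5.73, 5.39 and 5.42 in the GFP IPs, 3.11 and 3.27 in the PABP1 IPs, and 3.13, 2.93 and 3.12 in the inputs. The GFP IPs stood above all other arrays, with a difference of 2.45 from input (SE 0.14, limma adjusted p = 2.3e-05), and the PABP1 IPs had 0.13 (limma adjusted p = 0.499).

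The other genes named here were called against input in both kinds of IP. Lsm11, of the U7 snRNP that cuts histone pre-mRNAs, had 0.69 in the GFP IPs and 1.76 in the PABP1 IPs, and Lsm1, of the ring that binds uridylated histone mRNAs, had 1.80 and 2.85. Ncbp2, of the nuclear cap-binding complex, had 0.78 and 1.14. All 3 were higher in both.

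Among the cleavage factors, Cpsf3, the nuclease, had -0.94 in the GFP IPs and -0.93 in the PABP1 IPs, and Sympk, its scaffold, had -2.10 and -1.66. Of the genes of decay, Exosc10, a nuclease of the exosome, had -1.45 and -1.20, and Zcchc6, a uridylyltransferase, had -2.23 and -2.73. Each of these was lower in both. Xrn1, a 5′ exonuclease, was also called lower in both, with -0.64 in the GFP IPs. It was well above background on only 6 arrays. Its PABP1 IP levels, -4.63 and -4.45, lay below the -3.99 set for dim PABP1 IP arrays in the bounds. No size is given for Xrn1 in the PABP1 IPs. The remaining pair changed sign: Cpsf2, of the cleavage complex, had 0.63 in the GFP IPs and -1.17 in the PABP1 IPs, and Lsm4, of the Lsm ring, had -0.83 and 1.47.

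Histone variant genes, most of which are known to give polyadenylated mRNAs throughout the cell cycle, were set beside the family. Of 11 tested, 6 were higher and 2 lower in the GFP IPs than in input, with a median of 0.74 and a range of -3.30 to 2.77, against 21.4% higher and 43.3% lower among all tested genes. The PABP1 IPs had 8 higher and 1 lower, with a median of 1.41 and a range of -3.48 to 2.71, against 34.3% and 25.3%. Of the 11, 9 were well above background on all 8 arrays. The remaining pair, lowest in the inputs, is counted among those higher in the PABP1 IPs and holds the 2.71 (SE 0.94). H3f3a and H3f3b both encode H3.3, and they had 1.29 and 2.77 in the GFP IPs and 1.82 and 0.66 in the PABP1 IPs, all called. H2afz, for H2A.Z, had 0.17 in the GFP IPs, which was not called, and 1.91 in the PABP1 IPs. H2afx, for H2A.X, was called higher in both, with 0.74 and 1.06, and H1fx, for H1.10, lower in both, with -3.30 and -3.48. The difference between the variant list and the replication-dependent genes was not tested. The labels name no primer for the labelling, and which share of the signal came from tailed transcripts was not tested.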

How the data were processed

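RNA of 8 samples (3 GFP IPs, 2 PABP1 IPs, 3 inputs) was labelled with Cy3 by a 1-colour protocol, per the labels' protocols. The authors' deposited intensity values were made with Agilent Feature Extraction 9.1.3.1, per the file headers, with background subtracted; the header protocol is GE1-v5_95_Feb07. A deposited summary of group mean intensity, with scaling not stated, served as an alternative. After log2, each array was set relative to its 75th percentile. Replicate spots were averaged, and 32 outlier probes were left out. Of 27949 genes with a probe, 14743 had signal well above background throughout some group. These were tested two-sided, all 8 arrays together, with limma 3.58.1 (R 4.3.3, files read with version 1.17.8 of data.table). Degrees of freedom were 5 residual and 2.1 prior, and p-values were adjusted by Benjamini-Hochberg. The steps were tested on simulated data. Summaries and figures used Python 3.11.15, pandas 2.3.3 and matplotlib 3.10.9. Names and promoters came from RefSeq (31 genes matched by accession, 3 by synonym). The number of arrays limits the precision.

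The members, lists and tests were chosen with earlier results of these data known. Every tested member is named, with values by array for the member of highest mean signal of each class, those with the highest and lowest differences, and those called against most of their class. Hist1h1a, Hist1h1b, Hist1h2bk, Hist1h3d, Hist3h2a and Hist3h2ba are described beyond that rule, chosen after their values were seen. Genes for histone mRNA processing are named where called in both comparisons with input, with Slbp, and 5 variant genes are named. Primitive endoderm (3 of 4 tested, 0 called against input) and germ cell markers (2 of 4 tested, 2 higher in the GFP IPs, 1 lower in the PABP1 IPs) were also listed.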

Additional observations from a re-analysis of the deposited data

How the results depend on the processing

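Over 8 fits that each left out 1 array, the GFP IPs had 23 to 25 histone genes lower and 1 higher each time than input, with a median difference of -1.73 to -1.51. In the PABP1 IPs 10 to 14 were lower and 6 to 8 higher than input, with a median of -0.92 to -0.62, and between the IPs 10 to 16 were lower and 2 to 3 higher in the GFP IPs, with a median of -0.85 to -0.45. A fit with 1 PABP1 IP assumes that it varies like the other groups. Counts of genes higher in the GFP IPs than in input were 3 with quantile normalization, 4 with scaling to the array median, 2 with a percentile taken over detected probes, 4 with centring on the median gene, 0 with normexp, 0 with probes detected on all arrays only, 2 with slide as a block and 0 on slide 1 alone. Normexp gave 14 lower there, 2 higher and 3 lower in the PABP1 IPs than in input, and 0 higher and 8 lower between the IPs. Quantile normalization gave 5 higher and slide as a block 17 lower in the PABP1 IPs than in input. Between the IPs, 10 were higher with quantile normalization, 5 with scaling to the array median, 5 with the percentile over detected probes, 7 with centring and 5 with slide as a block, and 9 were lower with scaling to the array median, 9 with centring and 20 with slide as a block.

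The median for the GFP IPs over input was -1.23 with quantile normalization, -1.07 with scaling to the array median, -1.09 with centring and -0.9996 in the authors' deposited table, and for the PABP1 IPs it was -0.60 with normexp. Between the IPs it was 0.34 with quantile normalization, 0.10 with centring, -0.11 with scaling to the array median, -0.17 with the percentile over detected probes, -0.96 with normexp and -0.12 in the authors' deposited table. Called genes turned sign between the IPs with centring (Hist1h1a 0.15, Hist1h3d 0.024, Hist2h3c1 0.017) and with quantile normalization (Hist1h3d 0.78, Hist2h3c1 0.88). With quantile normalization Hist1h2aa (0.76), Hist1h2af (1.02) and Hist1h4f (0.58), below 0 and not called before, turned sign and were called higher. Hist1h4i over input in the GFP IPs was 0.074 in the authors' deposited table. The cause of these changes was not tested.

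Replicate numbers are shared by the groups but are not stated to pair arrays, so they were not taken to do so. Deviations of same-numbered arrays correlated at r from -0.74 to 0.62 over 7 pairs. The values were 0.52 to 0.62 within a slide and -0.74 to -0.29 across slides. They follow slide and cannot decide whether the numbers pair the arrays. With the replicate block, 2 genes were higher and 25 lower in the GFP IPs than in input, 8 higher and 13 lower in the PABP1 IPs than in input, and 3 higher and 13 lower between the IPs. Normexp ended the calls of the dim Hist1h2ae and Hist2h2be, and also that of the bright Hist2h3c1 in the PABP1 IPs over input (1.39, limma adjusted p = 0.141).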
